A study of Mus musculus with 6 samples.

Results

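The 6 genes Bcl2, Igfbp4, Rasgrp2, Sesn1, Trp53inp1 and Dapl1 were picked by symbol from a table of 4162 genes. They were chosen for their genotype difference in these data, among genes of the resting T cell state and of cell survival. All 6 passed the filter on low counts. The study sequenced RNA of splenic CD4+ T cells from 3 WT mice and 3 UTX TCD mice, all on the B6 background. UTX TCD mice lack UTX in T cells only. UTX is encoded by Kdm6a and takes methyl groups off lysine 27 of histone H3. The sources used here do not give the driver of the deletion, its exons or the age of the mice. Cells of both genotypes were isolated as naive CD4+ T cells with magnetic beads and then stimulated for 48 h with anti-CD3 on the plate and anti-CD28 in solution, so none of the libraries holds unstimulated cells.

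Naive T cells circulate in a resting state that depends on FOXO and KLF transcription factors, on homing receptors and on survival signals. Engagement of the T cell receptor and CD28 activates Ras, Rap1, PI3K and mTORC1, moves FOXO proteins out of the nucleus and lowers many genes of the resting state. Bcl2 encodes the anti-apoptotic protein that holds BAX, BAK and BH3-only proteins in check. Igfbp4 encodes a secreted protein that binds insulin-like growth factors and is a known transcript of naive T cells. Rasgrp2 encodes a calcium- and diacylglycerol-regulated exchange factor for Rap1, the small GTPase that activates integrins. Sesn1 encodes a sestrin, a stress-induced inhibitor of mTORC1 signalling, and Trp53inp1 a p53-induced nuclear protein with a role in autophagy. Dapl1 encodes a small protein related to death-associated protein DAP and is also transcribed in naive T cells.

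The genes lie on 6 different chromosomes, here with GRCm38 coordinates. Bcl2 (ENSMUSG00000057329) spans chr1:106538178-106714274 on the minus strand. Igfbp4 (ENSMUSG00000017493) spans chr11:99041244-99054392, Rasgrp2 (ENSMUSG00000032946) chr19:6399340-6415216 and Sesn1 (ENSMUSG00000038332) chr10:41809935-41908424, all on the plus strand. Trp53inp1 (ENSMUSG00000028211) spans chr4:11156431-11174379 and Dapl1 (ENSMUSG00000026989) chr2:59484653-59505020, also on the plus strand. Exons of D630008O14Rik cover 6.09% of the Bcl2 exons on the opposite strand, and exons of Gm14965 cover 2.14% of those of Rasgrp2. Reads from these stretches could belong to either gene if the counting ignored strand, and the strand setting is not stated in the labels.

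Upstream sequence is shown for the 4 windows of 250 bases before a RefSeq start site that overlap no annotated exon, because it sets the CpG-rich promoters of 3 genes with higher counts in UTX TCD cells beside the CpG-poor promoter of Dapl1, which had lower counts. Sequences run 5′ to 3′ on the strand of the gene and end at the base before the start site (RefSeq, GRCm38.p6). Capitals mark matches to motifs searched on both strands, which are named after the sequences. The windows are chr1:106714291-106714540 (minus strand), chr11:99040994-99041243, chr10:41887189-41887438 (the downstream of its 2 starts) and chr2:59484403-59484652.
Bcl2: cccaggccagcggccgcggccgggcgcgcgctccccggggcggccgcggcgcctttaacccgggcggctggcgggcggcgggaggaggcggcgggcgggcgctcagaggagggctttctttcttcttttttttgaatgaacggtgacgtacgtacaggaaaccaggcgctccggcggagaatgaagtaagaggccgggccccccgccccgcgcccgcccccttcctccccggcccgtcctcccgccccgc
Igfbp4: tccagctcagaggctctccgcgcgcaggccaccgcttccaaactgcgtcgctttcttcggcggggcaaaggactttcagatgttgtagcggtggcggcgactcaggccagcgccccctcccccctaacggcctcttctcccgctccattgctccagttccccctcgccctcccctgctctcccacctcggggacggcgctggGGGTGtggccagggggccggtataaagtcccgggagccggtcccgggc
Sesn1: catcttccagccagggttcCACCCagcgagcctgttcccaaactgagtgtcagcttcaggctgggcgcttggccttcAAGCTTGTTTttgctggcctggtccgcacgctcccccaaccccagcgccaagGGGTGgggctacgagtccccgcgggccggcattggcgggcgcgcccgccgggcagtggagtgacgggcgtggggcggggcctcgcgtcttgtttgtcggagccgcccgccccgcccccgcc
Dapl1: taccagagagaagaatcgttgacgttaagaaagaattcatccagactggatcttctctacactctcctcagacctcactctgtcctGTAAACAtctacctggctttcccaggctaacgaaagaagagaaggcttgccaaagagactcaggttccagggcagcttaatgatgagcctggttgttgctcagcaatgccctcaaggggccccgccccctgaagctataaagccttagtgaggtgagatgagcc

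The Bcl2 window held 36 CpG dinucleotides at an observed over expected ratio of 1.03, more CpGs than 97.4% of 32851 windows of the same length. Igfbp4 had 22 CpGs and a ratio of 0.75, and the Sesn1 window shown had 24 and 0.76. Dapl1 had 4 CpGs and a ratio of 0.26. The median was 6 CpGs and a ratio of 0.37 over all windows, and 15 and 0.71 over those of genes in the count table. Rasgrp2 and the other Sesn1 start, whose windows overlap annotated exons, had 21 to 31 CpGs. Windows of the matched genes that were higher thus held more CpGs than the table's median window, and that of Dapl1 held fewer. By ratio, however, the Igfbp4 window and the Sesn1 window shown lay near the table's median. Dapl1 is the only lower gene here. Whether CpG content goes with the direction of change over the table was not tested. Trp53inp1 was not matched, which left 5 of the 6 genes with 7 windows.

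Of 7 motifs searched, the FOXO motif TGTTTAC occurred once, in the Dapl1 window, where its first base lies 164 bases before the start. It occurred in 3.17% of all windows and in 2.46% of those of genes in the count table. The KLF motif CACCC occurred once in the Igfbp4 window, 48 bases before the start, 2 times in each Sesn1 window, and 3 times and once in the Rasgrp2 windows, while 52.01% of all windows and 59.3% of the table's windows held it. The p53 half-site matched the Sesn1 window shown, 173 bases before the start, against 7.13% of all windows and 5.98% of the table's. The ETS motif CCGGAAG matched 1 Rasgrp2 window, against 6.91% and 12.3%. The motifs of TCF1/LEF1 (CTTTGAT, 3.21% of all windows and 2.12% of the table's), HIF (ACGTG, 16.6% and 21.2%) and RUNX (TGTGGT, 14.05% and 11.9%) matched none of the 7 windows, which says only that these letters are not there. No match of one motif overlapped another in the windows shown.

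Facts of the whole table bear on every value below. Its column totals were 8363326 to 10288306 counts, and only 20 of 4118 tested genes had a log2 fold change within 0.1 of 0, so the table appears to hold genes chosen by their genotype difference, by a rule the labels do not state. CPM are counts scaled to a common library total, here the total of the listed genes. Kdm6a counts were lower in UTX TCD libraries, at 188, 207 and 179 CPM against 286, 281 and 281 CPM in WT. Counts are per gene and do not show which exons were lost. On the first principal component UTX TCD replicate 2 lay at 42.9, away from 18.9 and 24.5 for replicates 1 and 3, so values without it are given too. In bulk RNA, fewer cells of a type and less RNA per cell cannot be told apart. Of 13 T cell markers, Cd2, Lck and Thy1 were in the table. Lck had 1507 ± 24.5 CPM in WT libraries and 1375 ± 36.6 CPM in those of UTX TCD mice (SD, n = 3) and did not pass the edgeR test, Cd2 rose from 553 ± 59.4 to 1186 ± 424 CPM, and Thy1 fell from 809 ± 85.1 to 56.8 ± 18.3 CPM. Cd3e, Cd4 and the other T cell markers were not analysed here. Of markers of other cells, Cd8b1 had 11.6 to 14.5 CPM in WT and 31.4 to 56.2 CPM in the UTX TCD group. The 3 gamma-delta T cell markers summed to 3.27 to 7.04 and 9.28 to 12.8 CPM, the 3 B cell markers, mostly Ighm, to 467 to 569 and 491 to 790 CPM, and the 2 NK cell markers, mostly Eomes, to 23.0 to 59.4 and 25.7 to 53.5 CPM. Within these sums Igkc was lower, at a mean of 19.6 CPM in WT and 10.9 CPM in the UTX TCD group, as was Fcer2a at 21.2 and 11.4 CPM, while Klrd1 was higher, at 1.09 to 1.82 and 2.77 to 4.33 CPM. These 3 passed the test, though each lost its call without WT replicate 1 or 2, Igkc and Fcer2a also without WT replicate 3, and Igkc also without UTX TCD replicate 1 or 2 and with RLE or upper-quartile scaling. Cd8b1 and Tcrg-C1 were also called higher (edgeR adjusted p = 0.0023 and 0.0050). Both kept their calls with any 1 library left out. Tcrg-C1 rested on few reads, at means of 0.36 CPM in WT and 2.26 CPM in the UTX TCD group. The higher call of Tcrg-C2 was lost without UTX TCD replicate 1 or 2 or any 1 WT library. Trdc, Ighm and Eomes did not pass. The part of all these markers in the results was not tested.

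Counts of Bcl2, Igfbp4, Rasgrp2, Sesn1 and Trp53inp1 were higher in UTX TCD cells, and counts of Dapl1 were lower. In all 6 genes the groups did not overlap. The genes were chosen for this difference, so these values are a description with no test, and across the table the groups did not overlap in 85.8% of tested genes (41.8% higher and 44% lower in UTX TCD cells). The edgeR test (adjusted p under 0.05) called 68.1% of tested genes, 41.1% higher and 27% lower. The plot of CPM by library shows all 36 values.

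**Figure D1:**
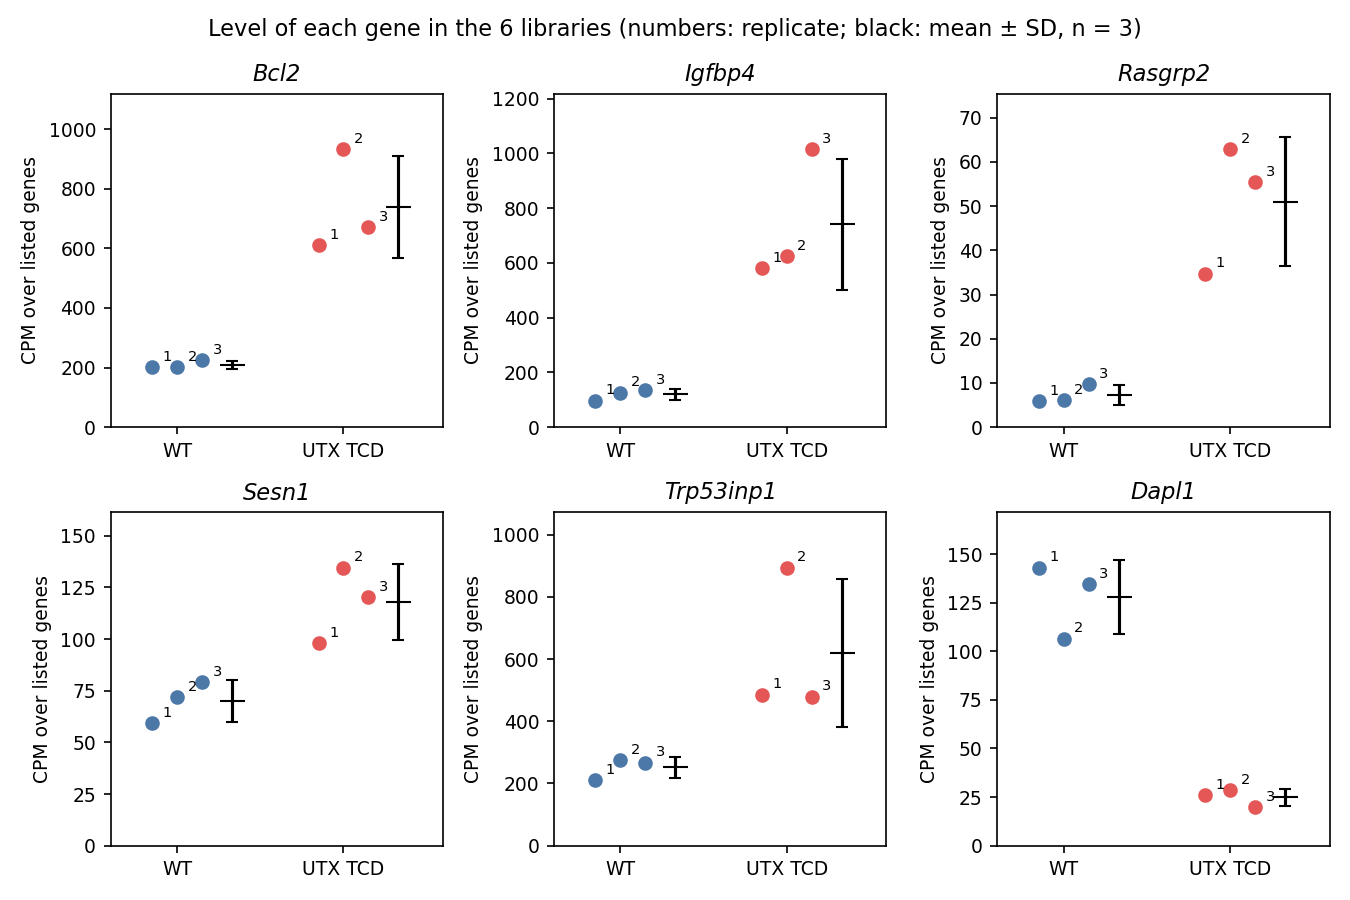
CPM of the 6 genes in the 3 WT (blue) and 3 UTX TCD (red) libraries. The y axis is linear from 0, with CPM relative to the genes of the table and TMM-scaled. Replicate numbers stand beside the points, and the mean ± SD of 3 libraries is in black. Every UTX TCD point lies above every WT point in 5 panels and below in that of Dapl1, and Bcl2 and Trp53inp1 were highest in UTX TCD replicate 2.

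Bcl2, the survival gene, had 201, 202 and 224 CPM in WT replicates 1 to 3 and 610, 933 and 671 CPM in UTX TCD replicates 1 to 3. The lowest UTX TCD library was 2.72 times the highest WT library. Means were 209 ± 13.1 and 738 ± 171 CPM (SD, n = 3), a 3.53-fold difference. The log2 fold change was 1.82 ± 0.16 (standard error), and 1.61 without UTX TCD replicate 2. WT libraries were close together, with a coefficient of variation of 6.26%, and UTX TCD libraries were wider, at 23.2%. This was not particular to Bcl2. Over all tested genes, edgeR's common estimate of variation between replicates was 8.01% in WT and 22.1% in UTX TCD libraries.

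Igfbp4, the growth factor binding protein gene, had 97.3, 126 and 136 CPM in WT and 581, 626 and 1016 CPM in UTX TCD replicates 1 to 3. It differed from the other genes in its highest UTX TCD library, which was replicate 3 and not 2. Its log2 fold change was 2.63 ± 0.24, a 6.18-fold difference of means, and it was 2.73 when UTX TCD replicate 2 was left out and 2.33 when replicate 3 was.

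Rasgrp2, the Rap1 exchange factor gene, had the lowest counts of the 6 in WT libraries, at 59, 56 and 86 raw counts, and 288, 595 and 532 in UTX TCD replicates 1 to 3. These were 5.84, 6.07 and 9.76 CPM against 34.7, 62.9 and 55.4 CPM. Both groups were well apart, with the lowest UTX TCD library at 3.56 times the highest WT library. The log2 fold change of 2.82 ± 0.30, a 7.06-fold difference of means, was the largest of the 6 in size, and only 41 of 4118 tested genes had a higher one. It was 2.64 without UTX TCD replicate 2.

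Sesn1, the sestrin gene, had 59.1, 71.9 and 79.0 CPM in WT and 98.1, 135 and 120 CPM in UTX TCD replicates 1 to 3. The groups were nearest to each other here, with the lowest UTX TCD library at 1.24 times the highest WT library. Its log2 fold change of 0.75 ± 0.15 was the smallest of the 6 in size (1.68-fold), and 800 tested genes had a higher one. It was 0.64 without UTX TCD replicate 2.

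Trp53inp1, the p53-induced gene, had 211, 276 and 267 CPM in WT and 485, 894 and 479 CPM in UTX TCD replicates 1 to 3. UTX TCD replicate 2 was high and replicates 1 and 3 lay close together, which gave the widest spread of the 6 genes (coefficient of variation 38.4%). The log2 fold change was 1.30 ± 0.25, 2.46-fold between means, and 0.93 without UTX TCD replicate 2.

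Dapl1 went the other way. It had 143, 107 and 134 CPM in WT and 25.9, 28.6 and 19.9 CPM in UTX TCD replicates 1 to 3, so that the lowest WT library was 3.72 times the highest UTX TCD library. Means were 128 ± 19.1 and 24.8 ± 4.48 CPM, 5.16-fold higher in WT. Its log2 fold change was -2.37 ± 0.17, with 71 tested genes lower, and -2.49 without UTX TCD replicate 2. The other naive-state genes Igfbp4 and Rasgrp2 lay at the opposite end of the distribution of fold changes.

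**Figure D2:**
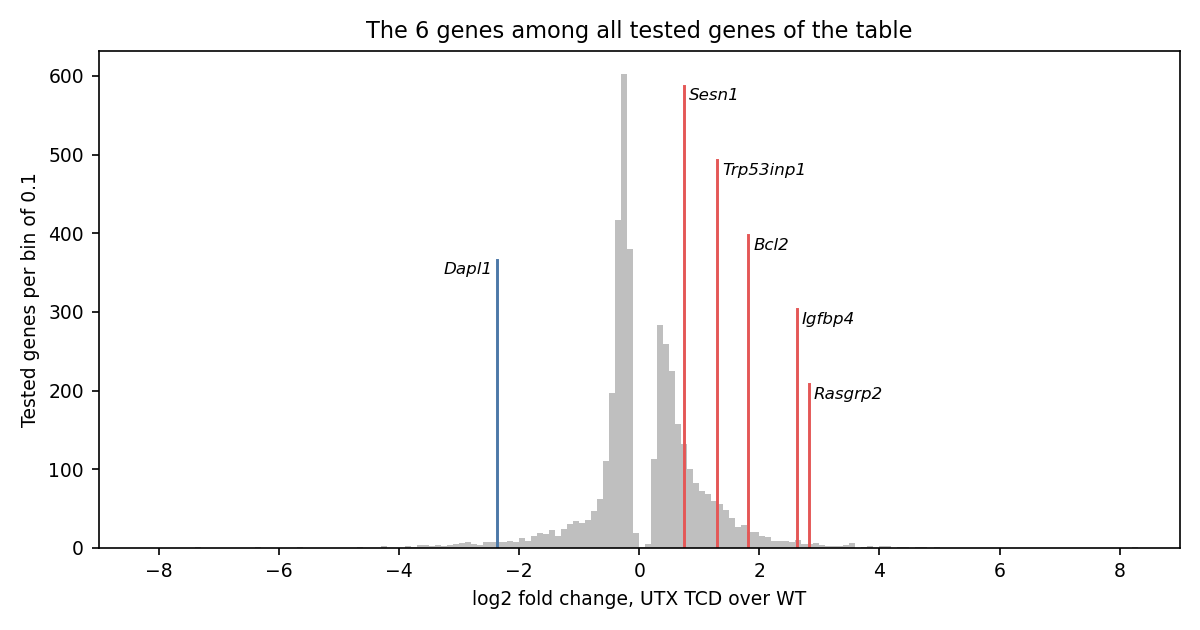
Histogram of log2 fold changes (x axis, UTX TCD over WT) of the 4118 tested genes in bins of 0.1, with the 6 genes as vertical lines (red higher, blue lower, line height arbitrary). Few genes of this table lie near 0, and Rasgrp2 at 2.82 and Dapl1 at -2.37 lie in the tails.

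The order of the genes by level per kilobase of their longest protein-coding transcript differed between genotypes. In WT libraries Dapl1 led at 223 ± 33.3 CPM per kb, followed by Trp53inp1 at 46.5 ± 6.44, Igfbp4 at 31.3 ± 5.30, Bcl2 at 29.1 ± 1.82, Sesn1 at 18.4 ± 2.64 and Rasgrp2 at 3.15 ± 0.96 CPM per kb (SD, n = 3). Only Igfbp4 and Bcl2 had overlapping ranges among neighbours in this order. In UTX TCD libraries Igfbp4 led at 193 ± 62.4 CPM per kb, followed by Trp53inp1 at 115 ± 44.0, Bcl2 at 103 ± 23.8, Dapl1 at 43.3 ± 7.81, Sesn1 at 30.9 ± 4.83 and Rasgrp2 at 22.2 ± 6.36 CPM per kb. There each gene's range overlapped that of its neighbour, except between Bcl2 and Dapl1. Dapl1 thus went from the first place to the fourth.

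Ratios of counts per transcript length within a library need no scaling between libraries. The ratio of Bcl2 to Bcl2l1, the gene of its anti-apoptotic relative BCL-XL, was 0.091, 0.10 and 0.14 in WT and 0.37, 0.49 and 0.63 in UTX TCD replicates 1 to 3. It was higher in every UTX TCD library, by 2.14 on the log2 scale. The ratio of Bcl2 to Bcl2l11, the gene of the BH3-only protein BIM that BCL2 binds, was 0.68, 0.53 and 0.52 in WT and 2.55, 3.35 and 2.27 in UTX TCD libraries, so that Bcl2 was below Bcl2l11 in every WT library and above it in every UTX TCD library. The ratio of Rasgrp2 to its paralogue Rasgrp1, the Ras exchange factor of T cell receptor signalling, went from 0.037, 0.037 and 0.056 to 0.13, 0.18 and 0.21. Sesn1 to Sesn3 was the ratio whose groups overlapped, at 0.34, 0.43 and 0.52 in WT and 0.26, 0.35 and 0.41 in UTX TCD libraries. These ratios hold genes chosen for their difference and carry no test.

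**Figure D3:**
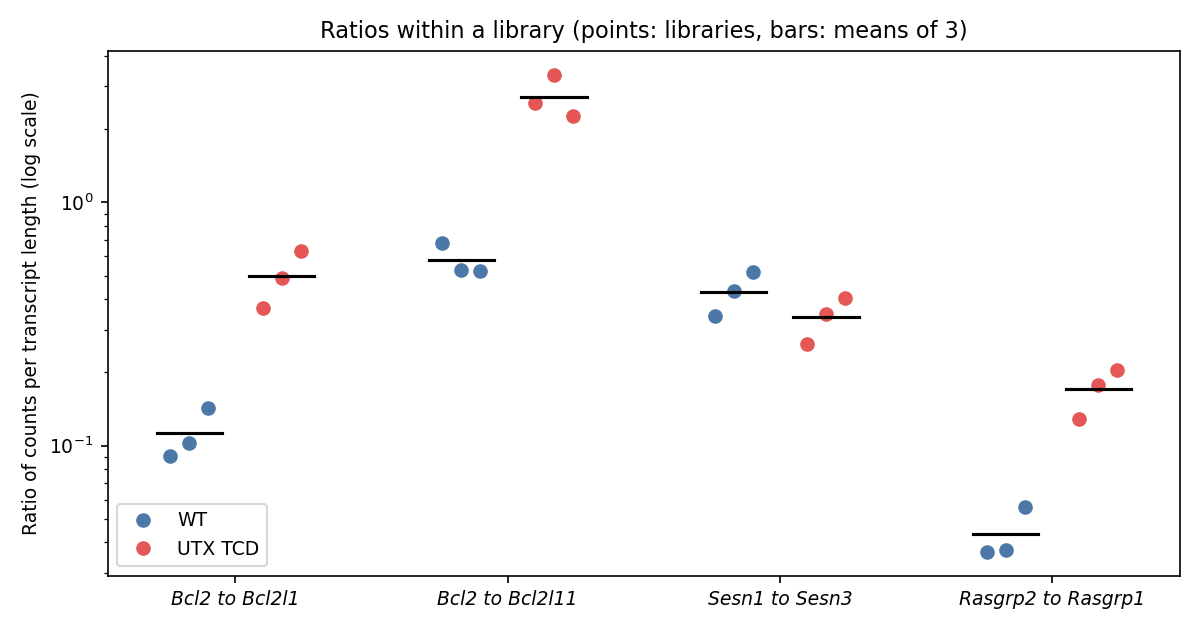
Ratio of counts per transcript length of gene pairs (y axis, log scale) in each WT (blue) and UTX TCD (red) library, with bars at the mean of 3. Bcl2 to Bcl2l1, Bcl2 to Bcl2l11 and Rasgrp2 to Rasgrp1 were higher in every UTX TCD library, and Sesn1 to Sesn3 overlapped between groups.

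Other genes of each pathway were counted without the 6 members. The lists were chosen with earlier results of these data known, so their counts are a description. Lists were read against the table, where edgeR called 41.1% of tested genes higher and 27% lower. The median log2 fold change there was -0.15. Genes not analysed here were 8 of 26 in the naive list, 5 of 24 FOXO targets and 24 of 36 p53 targets. In the sestrin list they were 27 of 39, in Ras and Rap1 control 23 of 38 and in the IGF axis 14 of 21. In autophagy they were 26 of 39 and in the cell cycle list 24 of 34. With upper-quartile scaling 70.6% of all calls were higher, with gap-centred scaling, which sets the emptiest point of the fold changes to 0, 45.8%, and with TMM 60.4%.

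Of 18 tested genes of the naive and memory T cell list, 14 were called higher and 2 lower, with a median log2 fold change of 0.79. Lef1, a transcription factor gene, rose from 511 ± 21.1 to 834 ± 38.6 CPM in UTX TCD cells (log2 fold change 0.71 ± 0.08, edgeR adjusted p = 0.0012). Klf2, which controls T cell trafficking, rose from 38.3 ± 10.03 to 171 ± 49.0 CPM (2.16 ± 0.26, edgeR adjusted p = 0.0015), and Cd27, a costimulatory receptor gene, from 203 ± 28.2 to 371 ± 37.8 CPM (0.87 ± 0.13, edgeR adjusted p = 0.0026). Tdrp fell from 29.9 ± 5.02 to 13.0 ± 3.42 CPM, and Cd44, a marker of activated and memory cells, from 788 ± 204 to 396 ± 132 CPM. The call of Cd44 was lost without WT replicate 1 or 2, which left 1 lower gene. Ccr7, a homing receptor gene, did not pass at 0.80 ± 0.32 (edgeR adjusted p = 0.053).

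Of 19 tested FOXO targets, 15 were called higher and 3 lower, with a median of 0.96. Klf2 is among 6 genes that are in the naive list too, so both counts rest partly on shared genes. Sesn3, the sestrin gene known as a FOXO target, rose from 393 ± 24.4 to 845 ± 118 CPM (1.10 ± 0.12, edgeR adjusted p = 0.0010), beside 0.75 for Sesn1. Cdkn1b, the cell cycle inhibitor p27, rose from 105 ± 7.65 to 237 ± 54.8 CPM (1.17 ± 0.16, edgeR adjusted p = 0.0023). Bcl6, Cited2 and Bcl2l11 fell, by 0.78, 0.47 and 0.45 on the log2 scale. The call of Bcl2l11 was lost with RLE or upper-quartile scaling and without UTX TCD replicate 1, WT replicate 2 or WT replicate 3. Foxo1 itself rose from 236 ± 10.9 to 335 ± 42.7 CPM (0.51 ± 0.11, edgeR adjusted p = 0.0085). Of the genes of PI3K subunits, which act upstream of FOXO, the catalytic Pik3cd rose by 0.74 and the regulatory Pik3r1 by 0.46, the latter not past the threshold with any 1 WT library left out.

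No other tested gene of the BCL2 family was called higher. Of 4 tested, edgeR called 0 higher and 2 lower, and DESeq2 and limma-voom also called 0 higher. All 4 had a log2 fold change below 0, with a median of -0.33. The median of all tested genes was also below 0, at -0.15. Bak1, a pore-forming executioner of apoptosis, had -0.35 ± 0.08 (edgeR adjusted p = 0.011) and Bcl2l11 had -0.45 ± 0.15 (edgeR adjusted p = 0.031). Bcl2l1 had -0.32 ± 0.22 and Bax -0.20 ± 0.08, and neither passed. The lower calls were 1 without WT replicate 1 or 3 and 0 without WT replicate 2, and 1 with RLE or upper-quartile scaling. Mcl1 and 18 further family members were not analysed here.

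Sesn1 and Trp53inp1 are known p53 targets. Of 12 other targets tested, 2 were called higher, 4 lower and 6 did not pass, with a median of -0.33. Ddb2, a DNA damage recognition gene, rose by 0.73 ± 0.11 (edgeR adjusted p = 0.0030) and Btg2, an anti-proliferative gene, by 0.53 ± 0.13. The polo-like kinase genes Plk2 and Plk3 fell by 0.99 ± 0.17 and 0.93 ± 0.20. Cdkn1a, the cell cycle inhibitor p21, did not pass at -0.46 ± 0.24. Lower calls were 2 without UTX TCD replicate 3 or any 1 WT library, 2 with upper-quartile scaling, 7 with gap-centred, and higher calls 1 without WT replicate 1.

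Around the sestrins, 4 of 12 tested genes of GATOR and mTORC1 control were called higher and 2 lower, with a median of 0.18. The higher ones were Sesn3, Rragd and Fnip1, which act on amino acid sensing at the lysosome, at 1.10, 1.49 and 1.25 on the log2 scale, and Slc38a9 at 0.63. Tbc1d7 and Sec13 were lower, at -0.47 and -0.28. Lower calls were 0 without WT replicate 1 or 2, 1 without WT replicate 3 and 6 with gap-centred scaling, as without UTX TCD replicate 2. The calls of Slc38a9 and Tbc1d7 were lost without WT replicate 1 or 2, and that of Sec13 without any 1 WT library or with upper-quartile scaling. In Ras and Rap1 control, 6 of 15 genes were called higher and 4 lower, with a median of 0.24. Rasgrp1 rose from 378 ± 17.4 to 678 ± 109 CPM (0.84 ± 0.12, edgeR adjusted p = 0.0026), and Dgka, which removes the diacylglycerol that Rasgrp proteins bind, by 0.70 ± 0.12. Itgal, the integrin chain of LFA-1 that Rap1 activates, had 2215 ± 111 CPM in WT and fell to 1229 ± 164 CPM (-0.85 ± 0.11, edgeR adjusted p = 0.0020). Rasal1, a Ras GTPase-activating protein gene, fell by 1.09 ± 0.15 on the log2 scale (edgeR adjusted p = 0.0023). The higher calls were 3 without WT replicate 1 or 2, and the lower calls 2 without any 1 WT library or with upper-quartile scaling and 7 with gap-centred scaling.

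In the IGF axis, 2 of 7 tested genes were called higher and 4 lower, with a median of -0.51. Igfbp7, the other IGF binding protein gene tested, went opposite to Igfbp4, from 168 ± 29.7 to 92.4 ± 11.9 CPM (-0.86 ± 0.15, edgeR adjusted p = 0.0048). Igf2r fell by 0.51 ± 0.10. Irs2, an insulin receptor substrate gene, rose by 0.90 ± 0.19, and Igf1r by 0.34 ± 0.10, a call lost without UTX TCD replicate 3 or any 1 WT library. Among 13 autophagy genes beside Trp53inp1, 8 were called higher and 2 lower, with a median of 0.33, and with values of 0.43 for Rb1cc1, 0.87 for Tecpr1, 1.91 for Wipi1 and 0.33 for the kinase gene Ulk1. Wipi1 rested on few reads, with means of 0.71 CPM (WT) and 2.69 CPM (UTX TCD), and lost its call without any 1 WT library. Those counts became 1 and 0 without WT replicate 1 or 2, 4 and 0 without WT replicate 3 or UTX TCD replicate 3, and 0 and 0 when p-values were adjusted over all annotated protein-coding genes. With that wider adjustment Cd44, Bcl2l11, Bak1, Btg2, Slc38a9, Tbc1d7, Sec13 and Igf1r also did not pass. Nor did Ulk1, Rb1cc1, Tecpr1, Wipi1, Igkc, Fcer2a, Klrd1, Tcrg-C2 and Pik3r1.

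**Figure D4:**
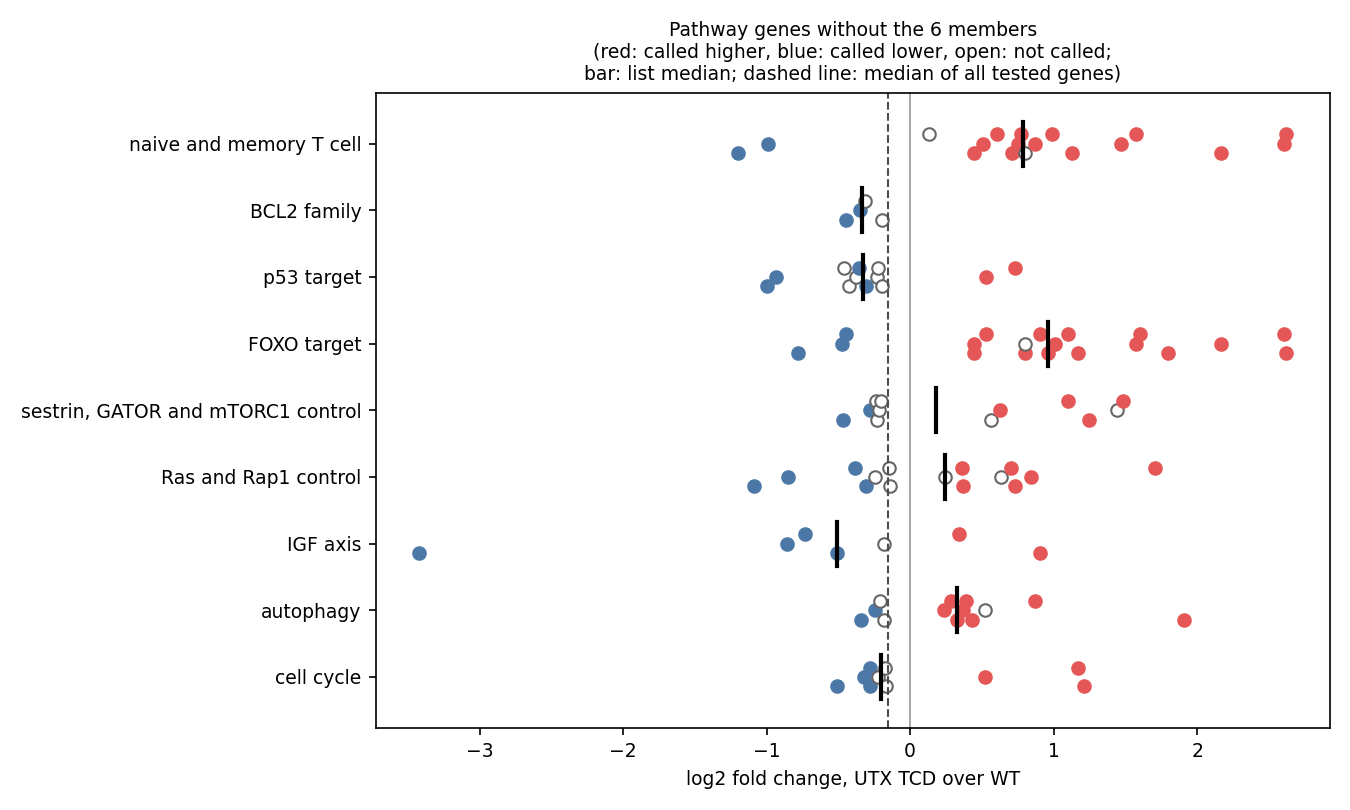
log2 fold changes (x axis, UTX TCD over WT) of the tested genes of 9 lists without the 6 members. Points are red where called higher, blue where called lower and open where not called. The lists were chosen with earlier results of these data known. Bars are list medians, at 0.79 for naive and memory T cell and 0.96 for FOXO target genes, and the dashed line is the median of all tested genes at -0.15.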

How the data were processed

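RNA of 3 WT and 3 UTX TCD cultures, 1 mouse each, was sequenced. The authors deposited raw counts of reads per gene, made with FastQC, HISAT2 and HTSeq on mm10, per the submitters' processing notes. The sources used here do not state versions, annotation or how the 4162 listed genes were chosen. Each column was tied to its sample by genotype and number in the title. The 6 genes, the gene lists and the tests were chosen with earlier results of these data known.

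Genotypes were compared in edgeR 4.0.16 (R 4.3.3) by its quasi-likelihood F test with TMM scaling, the default filter (minimum count 10, minimum total 15, 44 genes left out) and Benjamini-Hochberg adjustment over 4118 genes, called under 0.05. If the table was selected on genotype, adjusted p-values are smaller than over all genes. The standard error is the log2 fold change over the square root of F. Code was tested on simulated data. Alternatives were RLE, upper-quartile and gap-centred scaling, DESeq2 1.42.0, limma-voom (limma 3.58.1), no filter, a replicate block, each library left out and adjustment over 21951 annotated protein-coding genes. Lengths and positions came from GENCODE M21 (GRCm38). The text names genes from the 6 members, their paralogues and regulators, the 4 called genes of smallest p per list and direction, markers, and the 3 genes most correlated with each member. It does not name every gene this rule allows, and some are not reported here. Precision is limited by 3 libraries per genotype.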

Additional observations from a re-analysis of the deposited data

How the results depend on the processing

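All 6 genes kept their direction under every alternative run. With any 1 library left out, log2 fold changes were 1.61 to 1.94 for Bcl2, 2.33 to 2.78 for Igfbp4, 2.64 to 3.09 for Rasgrp2, 0.64 to 0.87 for Sesn1, 0.93 to 1.46 for Trp53inp1 and -2.49 to -2.23 for Dapl1. Over the table the counts called ranged from 730 to 1824 higher and 351 to 1458 lower, against 1692 and 1111. Upper-quartile scaling gave 725 lower calls and gap-centred scaling 1832. When p-values were adjusted over all annotated protein-coding genes, 630 genes were higher and 296 lower. The cause of these shifts was not tested, apart from the larger number of tests in the last.

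By that last count, the lists had fewer higher calls in the naive list (10), FOXO targets (11), p53 targets (1), sestrin list (3), IGF axis (1), Ras and Rap1 control (3) and autophagy (0), and fewer lower calls in the naive (1), FOXO (2), BCL2 (0), p53 (2), sestrin (0), IGF (3), Ras and Rap1 (2), autophagy (0) and cell cycle (1) lists. Upper-quartile scaling gave 1 lower BCL2 gene, 2 p53 targets, 1 sestrin, 2 Ras and Rap1, 1 autophagy and 2 cell cycle genes. Gap-centred scaling gave 7 lower p53 targets, 6 sestrin, 7 Ras and Rap1 and 4 autophagy genes. RLE gave 1 lower BCL2, 1 autophagy and 2 cell cycle genes, and DESeq2 1 and 2 of the last. With 1 library left out, the ranges of higher and lower calls were 11 to 15 and 1 to 2 (naive), 11 to 16 and 2 to 3 (FOXO), 0 and 0 to 2 (BCL2), 1 to 2 and 2 to 6 (p53), 3 to 5 and 0 to 6 (sestrin), 3 to 8 and 2 to 5 (Ras and Rap1), 1 to 2 and 3 to 4 (IGF), 1 to 9 and 0 to 3 (autophagy) and 3 and 1 to 6 (cell cycle).

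Deviations of same-numbered libraries of the 2 genotypes had correlations of 0.28, -0.28 and 0.18. The labels do not pair the mice, and 3 libraries per genotype are too few to settle whether the numbers do. A replicate block gave 1607 higher and 1026 lower genes and 1 lower autophagy gene. Not every library correlated best with its own number.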

Other observations

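Cell cycle genes were called in both directions, as were genes of the whole table. Of 10 tested, 3 were called higher and 4 lower, beside 41.1% and 27% of all tested genes. Their median log2 fold change was -0.20, beside -0.15 over the table. Cdkn1b, one of the higher genes, was also counted among the FOXO targets. The cell cycle inhibitor genes Cdkn2c and Cdkn1b rose by 1.21 ± 0.11 and 1.17 ± 0.16 (edgeR adjusted p = 6.9e-04 and 0.0023) and Cdk6, a G1 kinase, by 0.52 ± 0.11. Ccne1, the cyclin gene of S phase entry, fell by 0.51 ± 0.10 (edgeR adjusted p = 0.0066). The lower calls were 2 without UTX TCD replicate 3 and 1 without any 1 WT library.

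Genes most like the 6 members were ranked by Pearson correlation of log2 CPM over the 6 libraries, a measure that any shared genotype difference raises. The 3 closest to Bcl2 were Pxmp4, Zcchc24 and Eml5 (r = 0.9997, 0.9997 and 0.999), and to Igfbp4 Jak1, Fam13b and Adamts10 (0.998, 0.997 and 0.997). Those to Rasgrp2 were Arhgap33, Il6st and Plcl2 (0.999, 0.998 and 0.998), and to Sesn1 Scml4, Fnbp1l and Pitpnc1 (0.999, 0.999 and 0.998). Those to Trp53inp1 were Slain1, Zfp945 and Atrnl1 (each 0.997), and to Dapl1 Lax1, Ksr1 and Tmem173 (0.996, 0.996 and 0.995). Genes of low average level were left out, and only positive correlations were counted. Of 3818 genes compared, 691 correlated above 0.95 with Bcl2, 618 with Rasgrp2 and 482 with Trp53inp1. For Sesn1, Igfbp4 and Dapl1 the counts were 412, 316 and 143.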
